A study of Mus musculus with 23 samples.

Results

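Triglyceride and lipid droplet genes were followed in the hippocampus of 3xTg mice, a model of Alzheimer's disease (AD), and of wild-type (WT) mice. The group held 10 genes of 55335 in the count table, chosen by name for their part in building, coating or breaking down the triglyceride droplet: Lpin1, Dgat1, Dgat2, Plin2, Plin3, Plin4, Pnpla2, Abhd5, Lipe and Mgll. RNA sequencing covered 23 libraries of whole hippocampus, 1 mouse each. Mice of 8 months had no operation, and formed the groups WT-8M (n = 4) and 3xTg-8M (n = 4). Mice of 10 months had carried an osmotic pump for 28 days that infused the lateral ventricles with 80 µM of ab142089, an inhibitor of stearoyl-CoA desaturase (SCDi), or with its vehicle of 0.8% DMSO in artificial cerebrospinal fluid. Vehicle went to 4 WT mice (WT-D) and 4 3xTg mice (3xTg-D), and SCDi to 3 WT mice (WT-S) and 4 3xTg mice (3xTg-S). The 3xTg mice carried the Psen1tm1Mpm knock-in allele and the human transgenes APPSwe and tauP301L, whose expression is under control of the murine Thy1 element and so is mainly neuronal. The strain of the WT mice is listed as C57BL/6J x 129S1, and the listed name of the 3xTg strain gives a B6 and 129 background. All mice were female.

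Cells store surplus fatty acids as triglyceride inside lipid droplets. Lipin and the diacylglycerol acyltransferases make the triglyceride, perilipins coat the droplet, and a chain of lipases takes it apart again, one fatty acid at a time. Stearoyl-CoA desaturase supplies the monounsaturated fatty acids that the acyltransferases readily use. In the brain, droplets are seen mainly in glia and in the cells that line the ventricles, more than in neurons.

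Gene counts per library ranged from 12802267 to 36686413 at 8 months and from 12992547 to 17575615 at 10 months. Levels are counts-per-million (CPM) values on library sizes scaled by the TMM method of edgeR. The strain labels held in every library. Thy1, whose regulatory element drives the transgenes, was at 1329.2 CPM or more in all 3xTg libraries and at 735.9 CPM or less in all WT libraries. The neuronal markers were high in all libraries, with a summed level of 8049.8 to 10136.2 CPM over 8 genes. The sums were 9362.1 to 9866.1 CPM in WT-D and 8657.6 to 9332.0 CPM in 3xTg-D, without overlap. Between strains at 8 months and with SCDi they overlapped. Their part in the strain differences below was not tested. Fat tissue markers were close to 0: the sum of 6 adipocyte genes, among them the fat cell perilipin Plin1, was at most 0.707 CPM in any library, and Lep had no count in any. A gene is called here when its Benjamini-Hochberg adjusted p is under 0.05 over all tested genes. All 10 genes passed the filter on low counts in every comparison. Each library is 1 animal, but fewer cells of a type and less RNA per cell cannot be told apart in bulk tissue.

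The genes differed widely in level. As reads per kilobase of exon on the same library sizes (RPKM), Mgll was the most abundant at 37.0 ± 2.31 (SD, n = 23), followed by Dgat2 at 19.1 ± 1.55. Among 44 further genes of triglyceride and droplet metabolism, the most abundant per kilobase were the lysophosphatidylserine and monoacylglycerol hydrolase Abhd12 at 90.9 RPKM, the acyl-CoA synthetase Acsl3 at 57.5 RPKM, the acyltransferase Agpat1 at 30.9 RPKM, the monoacylglycerol hydrolase Abhd6 at 29.6 RPKM and the acyltransferase Agpat3 at 27.0 RPKM. The lowest of the 10 genes by group was Plin4 in WT-8M, at a mean of 0.554 RPKM. Plin2 stood between 1.43 and 1.75 RPKM in the group means, and Lipe between 0.926 and 1.29 RPKM.

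**Figure D1:**
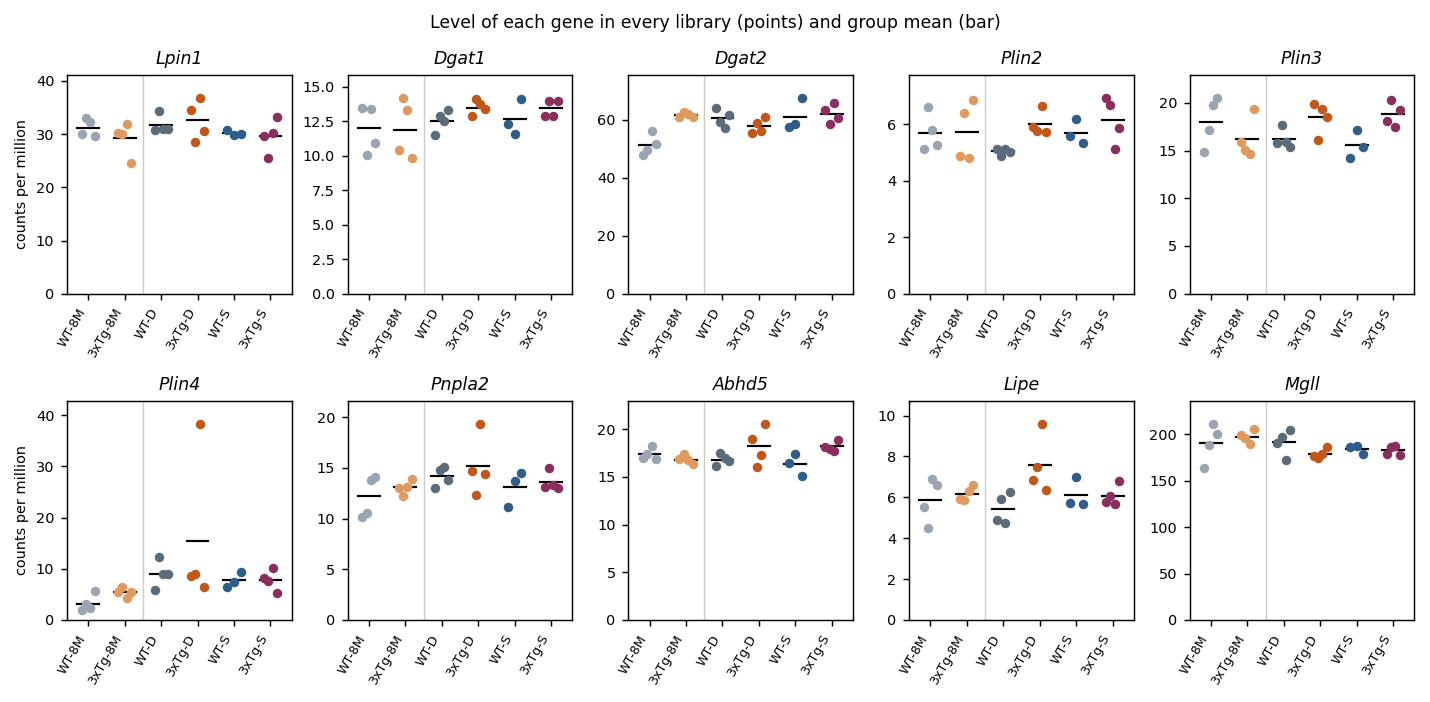
Level of each gene in CPM (vertical axes, from 0) in the 6 groups, with 1 point per library and a bar at the group mean (n = 3 for WT-S, otherwise 4). Most genes lay in a narrow band over all groups, while Plin4 was low in WT-8M (1.87 to 5.59) and reached 38.2 in 1 library of 3xTg-D.

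Ordered by group mean, 9 of the 10 genes had at most 1.39 times between the highest and the lowest of the 6 groups, and in those 9 every neighbouring pair of groups in the order overlapped in range. Plin4 was the exception, with a ratio of 4.85 between the mean of 3xTg-D (15.5 CPM) and that of WT-8M (3.2 CPM). Its WT-S libraries (6.43 CPM or more) all lay just above its 3xTg-8M libraries (6.39 CPM or less), and its other 4 neighbouring pairs overlapped. The share of all genes with a separate pair in such an order was not computed. Age, infusion and any difference in sequencing run cannot be told apart between the 8-month and the 10-month libraries. The 8-month sample labels also carry a letter L before the tissue, which the 10-month labels lack. Its meaning is not stated, and any difference that it marks cannot be told apart from age either.

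The strain comparison at 8 months asked which genes differed before any treatment. Dgat2 was higher in 3xTg-8M by 1.2 times, and it was the only one of the 10 genes called. Plin4 came next, with means of 5.43 CPM (3xTg-8M) and 3.2 CPM (WT-8M), but it was not called. Of all 15483 genes tested, 2.58% were called, and at an unadjusted p under 0.05 there were 17.4% of all genes and 2 of the 10. The median log2 difference of the 10 genes was 0.03, beside 0.01 over all genes.

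Dgat2 (chr7:99153658-99182719, minus strand, GRCm38) encodes an acyltransferase that adds the last fatty acid of triglyceride at the droplet surface. Its level was 48.0, 49.5, 56.1 and 51.7 CPM in the WT-8M libraries. In 3xTg-8M it was 61.1, 62.6, 61.9 and 61.1 CPM. The groups did not overlap, which was also so for 11.3% of all genes tested. The log2 fold change was 0.27 (SE 0.06) with an adjusted p of 0.0485, just inside the threshold. The call was lost when any 1 of 6 of the 8 libraries was left out, and the adjusted p ranged from 0.0114 to 0.148 over the 13 alternatives. Without WT-8M replicate 1 the difference was 0.23 (adjusted p = 0.117). That library was the lowest of all 23 for 4 of the 10 genes (Dgat2, Plin4, Pnpla2 and Mgll), whereas it was the lowest for 9.48% of all genes. It had the most gene counts of the 23, at 36686413. Its summed oligodendrocyte (3100.3 CPM) and ependymal (9.31 CPM) markers were the lowest of the 23, and its meningeal and fibroblast markers (182.7 CPM) the highest. The part of these in the Dgat2 difference was not tested.

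At 10 months the ranges of Dgat2 overlapped between strains. WT-D libraries held 64.0, 59.2, 57.2 and 61.8 CPM, and 3xTg-D libraries held 55.5, 58.9, 56.2 and 61.1 CPM. The log2 fold change was -0.07 (SE 0.06, adjusted p = 0.674). Dgat2 stayed between 57.5 and 67.5 CPM in WT-S and between 58.5 and 65.8 CPM in 3xTg-S. The change of the strain difference with age was itself tested, and Dgat2 had the smallest p of the 10 genes, with a log2 difference of -0.34 (SE 0.08, unadjusted p = 0.000766). It was not called, at an adjusted p of 0.276. In that test 0.0621% of 16108 genes were called and 9.57% had an unadjusted p under 0.05, beside 0 and 2 of the 10 genes. The other gene was Plin3, with a log2 difference of 0.33 (SE 0.15, unadjusted p = 0.0447, adjusted p = 0.516). Plin4 was at 0.07 (SE 0.68), and without 3xTg-D replicate 3, described below, at -0.91 (SE 0.41, adjusted p = 0.599).

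The other makers of triglyceride gave no call. Dgat1 (chr15:76502015-76511953) encodes the acyltransferase of the endoplasmic reticulum. It ranged from 9.82 to 14.2 CPM over all groups. Among the tested pairs of groups its largest log2 difference was 0.10 (SE 0.08), found for 3xTg-D and for 3xTg-S against WT-D. Lpin1 (chr12:16535669-16646966) encodes lipin 1, a phosphatase that turns phosphatidate into diacylglycerol. Lpin1 ranged from 24.5 CPM in a 3xTg-8M library to 36.8 CPM in 3xTg-D replicate 3. Its largest difference among the tested pairs of groups was -0.14 (SE 0.09, adjusted p = 0.581), for 3xTg-S against 3xTg-D.

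**Figure D2:**
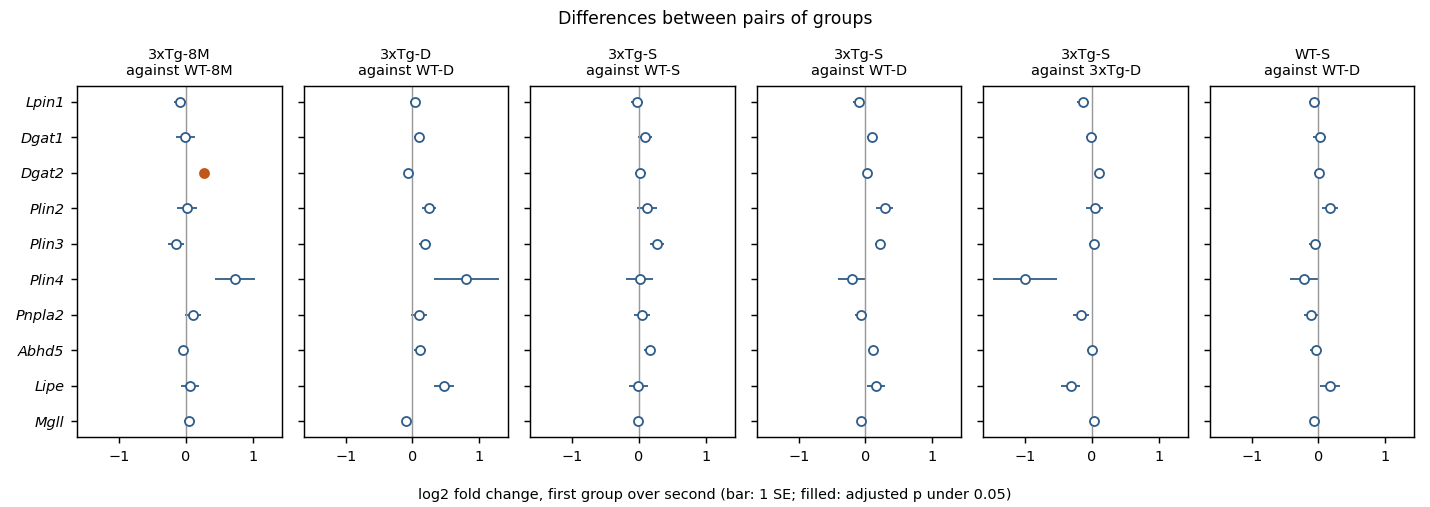
Log2 fold change of each gene (horizontal axes) in 6 pairs of groups, first group over second, with bars of 1 SE. The filled point, Dgat2 at 8 months (0.27), is the one call, and Plin4 has the widest bars (SE up to 0.49).

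At 10 months the strain comparison with vehicle gave no call among the 10 genes. Lipe and Plin2 were higher in every 3xTg-D library than in any WT-D library, and Plin4 had the largest difference and the largest error. By edgeR's quasi-likelihood test, 1.39% of 15528 genes were called, and 13.1% had an unadjusted p under 0.05, beside 2 of the 10. DESeq2 called none of the 10 either. The ranges were separate for 2 of the 10 genes and for 7.8% of all genes. Of the 10 genes 8 had a positive log2 difference, with a median of 0.11 beside -0.00 over all genes.

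Lipe (chr7:25379527-25398710, minus strand) encodes hormone-sensitive lipase, which cuts diacylglycerol. Another annotated gene overlaps Lipe, and without a stated strand setting their reads cannot be told apart. In WT-D it was at 4.89, 5.94, 4.73 and 6.25 CPM. In 3xTg-D it was at 6.86, 7.47, 9.57 and 6.36 CPM, so that the lowest 3xTg-D library lay just above the highest WT-D library. The log2 fold change was 0.47 (SE 0.15, unadjusted p = 0.00971, adjusted p = 0.2). Without 3xTg-D replicate 3, the highest library, it was 0.35 (SE 0.14, adjusted p = 0.366). In the groups with SCDi, Lipe was at 5.73, 6.97 and 5.67 CPM in WT-S and at 5.78, 6.04, 5.66 and 6.82 CPM in 3xTg-S. These 2 groups overlapped over nearly their whole range, with a difference of -0.01 (SE 0.14). At 8 months the values were 4.52 to 6.9 CPM in WT-8M and 5.85 to 6.59 CPM in 3xTg-8M, and the difference was 0.06 (SE 0.14).

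Plin2 (chr4:86648386-86670060, minus strand) encodes the perilipin that coats droplets in most cells outside fat tissue. Its 4 WT-D libraries lay close together at 5.12, 4.87, 5.13 and 5.02 CPM. The 3xTg-D libraries were at 5.92, 5.76, 6.64 and 5.72 CPM, all above WT-D. The log2 fold change was 0.25 (SE 0.11, unadjusted p = 0.0435, adjusted p = 0.363). With SCDi the values were 5.58, 6.18 and 5.32 CPM in WT-S and 6.93, 6.69, 5.14 and 5.88 CPM in 3xTg-S. Both of these groups also lay wholly above WT-D, by 0.18 (SE 0.12, adjusted p = 0.981) and 0.29 (SE 0.13, adjusted p = 0.264). These 3 comparisons share the WT-D libraries. Untreated mice of 8 months had 5.12 to 6.61 CPM in WT-8M and 4.8 to 6.86 CPM in 3xTg-8M, which overlapped. The microglial markers, 6 genes, summed to 324.4 to 369.0 CPM in WT-D, 317.8 to 498.1 CPM in 3xTg-D and 391.7 to 489.5 CPM in 3xTg-S. In WT-S, whose Plin2 also lay above WT-D, they summed to 337.8 to 360.8 CPM, inside the range of WT-D. Their part in the Plin2 values was not tested.

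Plin3 (chr17:56277476-56292873, minus strand) encodes a perilipin that is also found free in the cytosol and on endosomes. It was at 15.8, 17.7, 15.9 and 15.4 CPM in WT-D and at 19.9, 16.1, 19.4 and 18.5 CPM in 3xTg-D, a difference of 0.19 (SE 0.09, adjusted p = 0.383). In the SCDi groups it was at 14.2, 17.2 and 15.4 CPM in WT-S and at 18.1, 20.3, 17.5 and 19.2 CPM in 3xTg-S. Those groups did not overlap, and the difference was 0.27 (SE 0.10, unadjusted p = 0.0163, adjusted p = 0.3). At 8 months the sign was the other way, at -0.15 (SE 0.12, adjusted p = 0.563), with 14.8 to 20.5 CPM in WT-8M and 14.6 to 19.3 CPM in 3xTg-8M. The 6 oligodendrocyte markers were also higher in 3xTg-S (5723.5 to 6493.7 CPM summed) than in WT-S (3822.8 to 4879.3 CPM), with ranges that did not overlap, and their part in the Plin3 values was not tested.

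Plin4 (chr17:56100591-56109803, minus strand) encodes a perilipin rich in amphipathic repeats that is abundant in fat and muscle. It was at 5.94, 12.2, 8.99 and 8.88 CPM in WT-D, and at 8.59, 8.97, 38.2 and 6.36 CPM in 3xTg-D. The value of 38.2 CPM in 3xTg-D replicate 3 was 4.79 times the mean of the other 3 libraries of its group, and the highest Plin4 level in any other of the 23 libraries was 12.2 CPM. With all libraries the strain difference was 0.81 (SE 0.49, adjusted p = 0.534), and without that library it turned to -0.16 (SE 0.21, adjusted p = 0.866). The Plin4 difference at 10 months therefore rested on 1 animal.

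At 8 months Plin4 was at 1.87, 3.09, 2.25 and 5.59 CPM in WT-8M and at 5.44, 6.39, 4.35 and 5.52 CPM in 3xTg-8M. Of the WT-8M libraries 3 lay below every 3xTg-8M library, and replicate 4 lay inside the 3xTg-8M range. The log2 fold change was 0.74 (SE 0.30, unadjusted p = 0.0302, adjusted p = 0.237). Without WT-8M replicate 4 it was 1.22 (SE 0.21) and was called, at an adjusted p of 0.0144. Without WT-8M replicate 1 it was 0.50 (SE 0.27, adjusted p = 0.457).

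The lipases other than Lipe, and their cofactor, moved little between strains. Pnpla2 (chr7:141455198-141460743, plus strand) encodes adipose triglyceride lipase, which takes the first fatty acid off triglyceride. Pnpla2 was at 13.0 to 15.1 CPM in WT-D and 12.3 to 19.3 CPM in 3xTg-D, a difference of 0.10 (SE 0.12, adjusted p = 0.816). Abhd5 (chr9:122351608-122381524, plus strand) encodes the protein that activates this lipase. Abhd5 was at 17.7 to 18.9 CPM in 3xTg-S, above the 15.1 to 17.4 CPM of WT-S and the 16.1 to 17.5 CPM of WT-D, with differences of 0.16 (SE 0.08, adjusted p = 0.579) and 0.11 (SE 0.07, adjusted p = 0.426). Mgll (chr6:88724412-88828360, plus strand) encodes monoacylglycerol lipase, which releases the last fatty acid and in the brain also breaks down an endocannabinoid. Mgll ranged from 163.9 to 210.7 CPM at 8 months and from 172.5 to 204.8 CPM at 10 months. Its largest difference among the tested pairs of groups was -0.10 (SE 0.06, adjusted p = 0.504), in 3xTg-D against WT-D.

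The remaining strain comparisons gave no call either. In 3xTg-S against WT-S, edgeR's test called 1.32% of 15664 genes and none of the 10, 1 of the 10 (Plin3) had an unadjusted p under 0.05 beside 10.6% of all genes, and the ranges were separate for 2 of the 10 (Plin3 and Abhd5) beside 10.8% of all genes. In 3xTg-S against WT-D it called 2.29% of 15567 genes and none of the 10. An unadjusted p under 0.05 was found there for 2 of the 10 (Plin2 and Plin3) beside 16.9%, and no overlap for 2 of the 10 (Plin2 and Abhd5) beside 10.4%. DESeq2 also called none of the 10 in either comparison. The largest of these differences was Plin2 in 3xTg-S against WT-D, at 0.29 (SE 0.13).

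The effect of SCDi was asked within each strain, over both strains, and as a difference between strains. None of the 10 genes was called in any of the 4 tests, and no direction was shared by all 10. In 3xTg mice 5 of the 10 differences were positive and 5 negative, with a median of -0.00 on the log2 scale, as over all genes. In WT mice 4 were positive and 6 negative, with a median of -0.05 beside 0.00 over all genes.

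In 3xTg-S against 3xTg-D, edgeR's test called 0 of 15530 genes (0.0%) and DESeq2 called 14, none of them among the 10. An unadjusted p under 0.05 was found for 11.2% of all genes and for 1 of the 10. The ranges were separate for 7.04% of all genes and for 0 of the 10. The gene at an unadjusted p under 0.05 was Lipe, at -0.32 (SE 0.14, unadjusted p = 0.0418, adjusted p = 0.436). Plin4 had the largest difference at -1.01 (SE 0.48, adjusted p = 0.458). Its 3xTg-S libraries were at 8.21, 7.66, 10.1 and 5.27 CPM, around the 6.36 to 8.97 CPM of the 3xTg-D libraries other than replicate 3. Without that replicate the Plin4 difference was -0.03 (SE 0.19, adjusted p = 0.966) and the Lipe difference was -0.18 (SE 0.12, adjusted p = 0.648). The other 8 genes had differences between -0.16 (Pnpla2, SE 0.12) and 0.10 (Dgat2, SE 0.06).

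**Figure D3:**
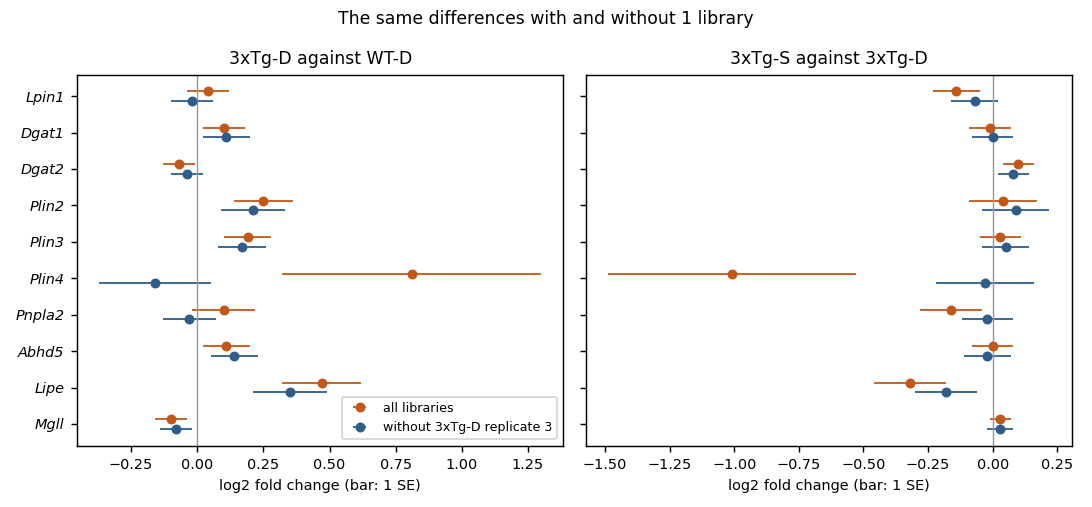
Log2 fold change (horizontal axes) of each gene in 3xTg-D against WT-D and in 3xTg-S against 3xTg-D, with all libraries and without 3xTg-D replicate 3, with bars of 1 SE. Plin4 moved from 0.81 to -0.16 and from -1.01 to -0.03, whereas Plin3 in 3xTg-D against WT-D was at 0.19 and 0.17.

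In WT-S against WT-D, edgeR's test called 0 of 15724 genes (0.0%), and DESeq2 called 0 of 30197. An unadjusted p under 0.05 was found for 3.42% of all genes and 0 of the 10, and the ranges were separate for 4.88% of all genes and 1 of the 10 (Plin2). Plin4 was at 6.43, 7.4 and 9.36 CPM in WT-S, a difference of -0.21 (SE 0.22). With runs of animal numbers as a block it was -0.37 (SE 0.18, adjusted p = 0.997). Over both strains, edgeR's test called 0 of 15864 genes (0.0%), DESeq2 called 43 and none of the 10, and an unadjusted p under 0.05 was found for 13.8% of all genes and 0 of the 10. The 4 lipolysis genes were between -0.14 (Pnpla2, SE 0.09) and -0.01 (Mgll, SE 0.04), and Abhd5 (-0.02, SE 0.06) and Mgll changed sign under some alternatives. Plin4 had -0.66 (SE 0.33, adjusted p = 0.377), and without 3xTg-D replicate 3 it had -0.12 (SE 0.16, adjusted p = 0.795).

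The difference between strains in the response to SCDi was tested as an interaction. edgeR's test called 0 of 16262 genes (0.0%), and DESeq2 called 0 of 32968. By edgeR's test 2.32% had an unadjusted p under 0.05, beside 1 of the 10. This was Lipe, at -0.49 (SE 0.21, unadjusted p = 0.0325, adjusted p = 1), whose difference with SCDi was -0.32 in 3xTg and 0.17 (SE 0.15) in WT. Without 3xTg-D replicate 3 the Lipe interaction was -0.35 (SE 0.19, unadjusted p = 0.0818). Plin4 turned from -0.80 (SE 0.65) to 0.18 (SE 0.32) when that library was left out.

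The enzymes that the compound inhibits did not differ by a called amount between 3xTg-S and 3xTg-D. Scd1 was at 129.9, 129.4, 124.1 and 137.7 CPM in 3xTg-S and at 135.1, 129.7, 170.2 and 150.8 CPM in 3xTg-D, a log2 difference of -0.17 (SE 0.08, adjusted p = 0.446). Its highest 3xTg-D library was again replicate 3. Scd2 was at 1346.9 to 1411.8 CPM in 3xTg-S and 1359.8 to 1463.2 CPM in 3xTg-D. Between strains at 8 months, Scd1 was lower in 3xTg-8M, at -0.35 on the log2 scale (SE 0.07, adjusted p = 0.0208). It was also lower in 3xTg-S than in WT-D, at -0.27 (SE 0.06, adjusted p = 0.0265), and was not called in 3xTg-D against WT-D, at -0.10 (SE 0.08, adjusted p = 0.638).

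The library 3xTg-D replicate 3 was the highest of all 23 for 4 of the 10 genes (Plin4, Lipe, Pnpla2 and Lpin1). It was the highest for 8.81% of all genes. It held 38.2 CPM of Plin4, 9.57 CPM of Lipe, 19.3 CPM of Pnpla2 and 36.8 CPM of Lpin1. These are 4.79, 1.39, 1.4 and 1.18 times the mean of the other 3 libraries of 3xTg-D. The next highest library of the 23 was at 12.2, 7.47, 15.1 and 34.5 CPM. Abhd5, Mgll, Dgat1 and Dgat2 were at 0.935 to 1.02 times that mean, Plin3 at 1.07 and Plin2 at 1.14 times. It held 16417906 gene counts, within the range of the 10-month libraries, and the part of depth was not tested.

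A list of 21 genes known to respond to glucocorticoids or fasting, written from general knowledge with earlier results of these data known, was set beside it. The library was the highest of all 23 for 6 of these 21. Sult1a1, a sulfotransferase, was at 29.7 CPM beside 7.22 to 9.26 CPM in the rest of 3xTg-D. Pdk4, a kinase that turns down the entry of glucose carbon into the citric acid cycle, was at 32.1 CPM beside 17.2 to 20.0 CPM. Fkbp5, a chaperone induced by glucocorticoid receptor, was at 94.4 CPM beside 66.3 to 73.8 CPM. Cdkn1a, Map3k6 and Arrdc2 were the other 3. The list did not move as one: Sgk1, another glucocorticoid target, was at 66.6 CPM in this library, under the 90.7 to 120.2 CPM of the rest of the group, and Klf9 was the lowest of all 23 libraries at 231.7 CPM. Among 35 further droplet and triglyceride genes that passed the filter over all libraries, the library was the highest for 3 and the lowest for 3. The highest were the acyltransferase Gpam, the droplet protein Hilpda and the droplet-associated Mettl7a1, and the lowest were Agpat1, Agpat4 and Tmem159. Over all genes the library was the highest for 8.81% and the lowest for 7.46%. Blood markers, 5 genes, summed to 4.79 CPM in this library, the lowest of all 23, and reached 67.2 CPM elsewhere in 3xTg-D. Summed microglial markers, at 317.8 CPM, were also the lowest of all 23. Summed oligodendrocyte (3602.2 CPM), neuronal (8657.6 CPM) and astrocyte (4639.1 CPM) markers were the lowest of 3xTg-D, and endothelial markers (188.7 CPM) the highest of 3xTg-D. The part of these in the 4 genes was not tested.

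**Figure D4:**
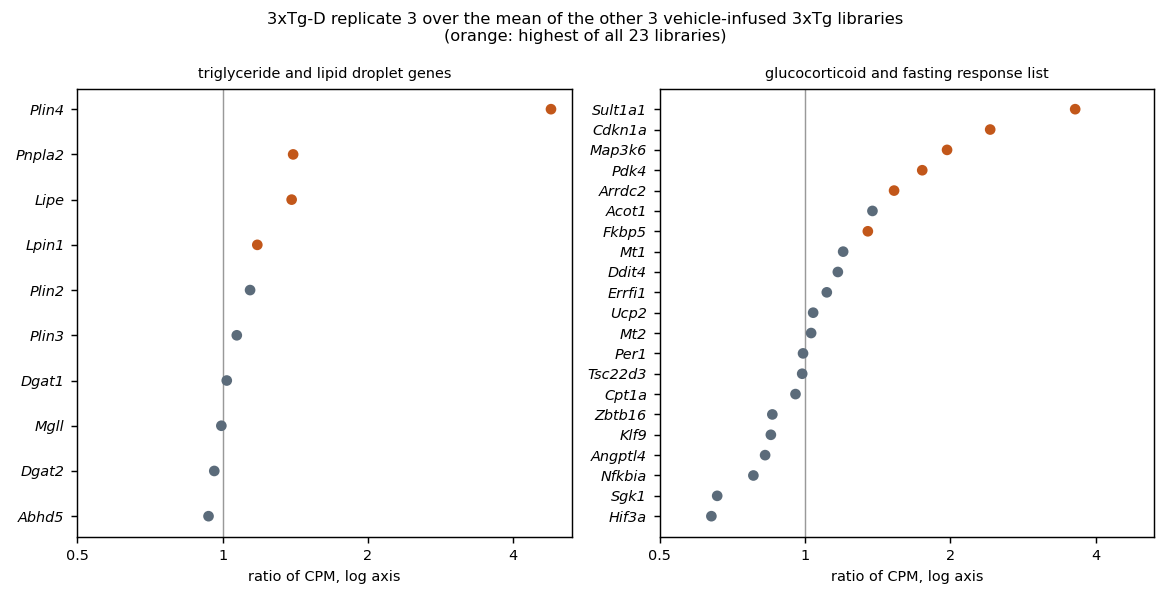
CPM in 3xTg-D replicate 3 divided by the mean of the other 3 libraries of 3xTg-D (horizontal log axes) for the 10 triglyceride and droplet genes and for 21 genes of the glucocorticoid and fasting list, with genes that were highest of all 23 libraries in orange. Plin4 stands at 4.79, and 6 of the 21 listed genes are in orange, while Sgk1 lies at 0.658 and Hif3a at 0.64.

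The sequences before the start sites of these 4 genes are shown because the genes were high together in 1 library. RefSeq promoters on GRCm38.p6 were at hand for 8 of the 10 genes. The windows are the 250 bases before the start, given 5′ to 3′ on the gene's strand: chr17:56109783-56110032 (minus) for Plin4, chr7:25390113-25390362 (minus, the downstream one of 2 listed starts) for Lipe, chr7:141454938-141455187 (plus) for Pnpla2 and chr12:16610967-16611216 (minus) for Lpin1. In the Gencode annotation 21 bases of the Plin4 window and 11 of the Lipe window are exonic, and none of the others. The Lpin1 window lies inside the span given above for that gene, which is the span of the count table. The Gencode release used here gives Lpin1 other coordinates, and in it the window overlaps no gene. Capitals mark matches to 4 short motifs on either strand.
Plin4: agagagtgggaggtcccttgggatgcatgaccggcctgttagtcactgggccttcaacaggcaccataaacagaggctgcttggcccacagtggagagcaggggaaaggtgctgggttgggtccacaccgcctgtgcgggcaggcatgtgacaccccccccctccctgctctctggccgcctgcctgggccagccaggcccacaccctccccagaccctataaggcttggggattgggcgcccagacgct
Lipe: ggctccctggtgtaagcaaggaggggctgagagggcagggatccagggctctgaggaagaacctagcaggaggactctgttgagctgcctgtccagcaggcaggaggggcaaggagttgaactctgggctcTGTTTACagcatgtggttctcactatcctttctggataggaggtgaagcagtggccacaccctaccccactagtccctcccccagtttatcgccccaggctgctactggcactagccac
Pnpla2: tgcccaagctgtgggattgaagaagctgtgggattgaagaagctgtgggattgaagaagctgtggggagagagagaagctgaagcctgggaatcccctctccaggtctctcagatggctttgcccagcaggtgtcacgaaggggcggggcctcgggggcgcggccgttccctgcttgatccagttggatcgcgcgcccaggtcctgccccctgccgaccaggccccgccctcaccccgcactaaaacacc
Lpin1: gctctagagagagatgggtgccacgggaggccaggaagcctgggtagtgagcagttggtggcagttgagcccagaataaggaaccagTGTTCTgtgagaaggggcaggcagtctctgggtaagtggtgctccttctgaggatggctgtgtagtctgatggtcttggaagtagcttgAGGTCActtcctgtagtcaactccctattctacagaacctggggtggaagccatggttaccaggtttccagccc
The motifs were the glucocorticoid receptor half-site AGAACA, the FoxO site GTAAACA, the nuclear receptor half-site AGGTCA and the E-box CACGTG. None overlaps another in these windows. Lipe held a FoxO match (TGTTTAC) beginning 119 bases before the start, and 3.17% of 32851 promoters held one. Lpin1 held a glucocorticoid half-site (TGTTCT) beginning 163 bases before the start and a nuclear receptor half-site (AGGTCA) beginning 74 bases before it. Half-sites of these kinds were found in 16.1% and 14.0% of promoters, and an E-box in 6.02%. The Plin4 and Pnpla2 windows held none of the 4 motifs. Matches were also found before genes that were not the highest in that library: 1 of the Mgll windows held a FoxO site, a glucocorticoid half-site and an E-box, and the Plin2 and Abhd5 windows each held a nuclear receptor half-site. The upstream Lipe window held an E-box and no FoxO site.

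Likeness of pattern was measured by Pearson's r of log2 CPM over the 23 libraries, each gene centred within its age, among 11650 genes that averaged 5 CPM or more. The points share libraries and depth, and r is given as a description. The 4 genes with the largest spread were Plin4 (SD 0.64 on the log2 scale), Lipe (0.22), Pnpla2 (0.17) and Plin2 (0.17). Plin4 was most like Fkbp5 (r = 0.86), the lysophospholipid transporter Mfsd2a (r = 0.84) and Etnppl, an astrocyte enzyme that breaks down phosphoethanolamine (r = 0.82). Without 3xTg-D replicate 3 these were 0.79, 0.72 and 0.69. Etnppl was at 75.8 CPM in that library and at 15.9 CPM or less in every other. WT-8M replicate 4, which stood apart from its group in Plin4, held 10.6 CPM of Etnppl, beside 3.0 to 3.77 CPM in the other WT-8M libraries.

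**Figure D5:**
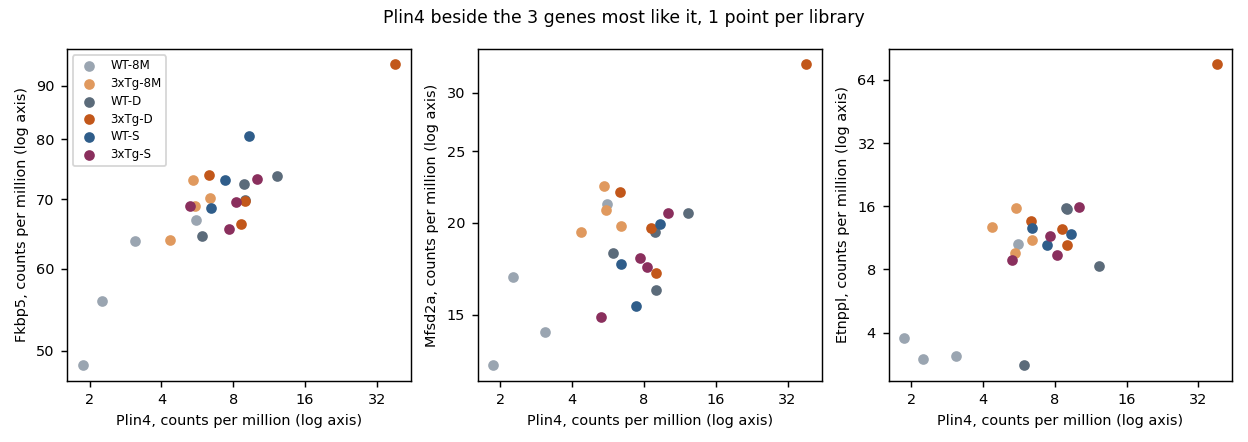
CPM of Fkbp5, Mfsd2a and Etnppl (vertical log axes) against CPM of Plin4 (horizontal log axes), 1 point per library in the colour of its group. The library 3xTg-D replicate 3 is at the upper right of each panel, and 3 of the WT-8M libraries, at 1.87 to 3.09 CPM of Plin4, lie at the left.

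Lipe was most like Sun2, a protein of the nuclear envelope (r = 0.73), Eml3, which binds microtubules (0.72), and Ficd, which modifies a chaperone of the endoplasmic reticulum (0.71). Without 3xTg-D replicate 3 the values were 0.63, 0.62 and 0.52. Pnpla2 was most like the serine protease Htra1 (0.81), the dehydrogenase Ogdhl (0.77) and the membrane protein Ttyh1 (0.77), which came to 0.72, 0.64 and 0.61 without it. Plin2 was most like the mitochondrial protein Mtfr1 (0.85), the complement inhibitor Serping1 (0.80) and the scavenger receptor Colec12 (0.80), and these hardly depended on that library (0.83, 0.79 and 0.79). Among the 10 genes themselves the highest pair was Plin4 with Pnpla2, at r = 0.70 and at 0.49 without the library. Pnpla2 with Lipe was at 0.56 and at 0.31, and Plin3 with Pnpla2 at 0.55 and 0.54.

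The wider set of triglyceride and droplet genes gave 1 call in all comparisons. Of the 44 genes in the table, 34 were tested in each comparison but that of strain by age, where 35 were. Mettl7a1, a droplet-associated methyltransferase-like protein, was higher in 3xTg-8M, with 34.1, 29.7, 29.0 and 29.1 CPM beside 16.3, 25.8, 19.7 and 21.7 CPM in WT-8M. The groups did not overlap, and the log2 fold change was 0.56 (SE 0.12, adjusted p = 0.0351). Counts at an unadjusted p under 0.05 were 8 of 34 at 8 months (4 with a positive and 4 with a negative sign), beside 17.4% of all genes, and 6 in 3xTg-D against WT-D (2 positive and 4 negative), beside 13.1%. There were 2 in 3xTg-S against WT-D beside 16.9%, 3 in 3xTg-S against WT-S beside 10.6%, 4 in 3xTg-S against 3xTg-D (2 positive and 2 negative) beside 11.2%, and 0 in WT-S against WT-D beside 3.42%. The median log2 difference of the wider set was 0.06 at 8 months and between 0.00 and 0.02 in the other 5 pairs of groups.

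Of the glucocorticoid and fasting list none was called, and an unadjusted p under 0.05 was found for 5 of 21 at 8 months (17.4% of all genes), 6 in 3xTg-D against WT-D (13.1%), 8 in 3xTg-S against WT-D (16.9%) and 4 in 3xTg-S against WT-S (10.6%). In 3xTg-S against 3xTg-D there were 2 (11.2%), and in WT-S against WT-D 0 (3.42%). Over both strains there was 1 (13.8%), for strain by treatment 0 (2.32%) and for strain by age 1 (9.57%). Pdk4 was among these genes in the 4 strain comparisons, and in 3xTg-S against 3xTg-D, at -0.39 (SE 0.17, adjusted p = 0.436). It stood at 20.0, 17.7, 32.1 and 17.2 CPM in 3xTg-D beside 13.8, 13.2, 10.5 and 12.5 CPM in WT-D, a difference of 0.80 (SE 0.18, unadjusted p = 0.000918, adjusted p = 0.0606). Pdk4 differed by 0.41 (SE 0.10, adjusted p = 0.0608) in 3xTg-S against WT-D and by 0.47 (SE 0.12, adjusted p = 0.1) in 3xTg-S against WT-S. The clock gene Per1 was at -0.23 in 3xTg-D against WT-D (SE 0.07, adjusted p = 0.187) and at -0.23 in 3xTg-S against WT-D (SE 0.07, adjusted p = 0.112). Sult1a1 was at 0.41 (SE 0.11, adjusted p = 0.085) in 3xTg-S against WT-D, and the transcription factor Zbtb16 at -0.37 (SE 0.11, adjusted p = 0.171) in 3xTg-S against WT-S. At 8 months the hypoxia-inducible factor Hif3a was at 0.72 (SE 0.18, adjusted p = 0.0596) and Tsc22d3, a glucocorticoid-induced leucine zipper protein, at 0.33 (SE 0.10, adjusted p = 0.127), both without overlap.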

How the data were processed

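Polyadenylated RNA from mouse hippocampus gave 23 libraries. According to the study's methods and the submitters' processing notes, reads from 1 end were trimmed with Trimmomatic 0.35 and aligned with STAR 2.5.1b to GRCm38, and the authors deposited raw counts per gene, not normalised and not pooled. The strand setting and any collapsing of molecular identifiers are not given in the sources used here. Reads outside genes (24.7% to 30.9%) were left out, and every sample column was used.

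Groups follow the labels, which state that 8-month samples were compared with each other only. Pairwise contrasts used the libraries of both groups alone, in edgeR 4.0.16 (R 4.3.3) with filterByExpr, TMM scaling and the quasi-likelihood test, and all adjusted p-values come from this test with Benjamini-Hochberg adjustment over all tested genes. The effect over both strains, strain by treatment (15 libraries) and strain by age (16 libraries, each strain difference within its age) were fitted in 1 model each. An SE is the size of the log2 fold change over the square root of F. CPM values are on TMM-scaled library sizes of all 23 libraries. Exon lengths came from Gencode M21 (GRCm38) and promoter sequences from RefSeq. The tests were checked on simulated counts with known changes.

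The members and lists were chosen with earlier results of these data known. Named genes are the 10 members in every comparison, genes of the wider list that were called and its 5 most abundant per kilobase, genes of the glucocorticoid and fasting list that were called or had an unadjusted p under 0.01, the 3 genes most like each of the 4 members with the largest spread, and Scd1, Scd2, Thy1 and App as checks. One gene of the glucocorticoid and fasting list is not reported here. Others named for 3xTg-D replicate 3 were chosen after their values were seen. App, the locus of one transgene, was at 0.42 (SE 0.06) at 8 months and 0.41 (SE 0.06) with vehicle, on the log2 scale, higher in 3xTg. Alternatives were DESeq2 1.42.0 (likelihood ratio test, or its size factors in edgeR), no filter, an unadjusted p under 0.01, length and GC trends removed, all 15 libraries of 10 months in 1 fit, a block for runs of 4 animal numbers (same-run pairs of WT-D with WT-S had r of 0.12 to 0.184 in their deviations from the group means, and WT-S replicate 1 had 0.249 with WT-D replicate 1 of another run), and each replicate left out.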

Additional observations from a re-analysis of the deposited data

Results flagged for a closer look

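In groups of 4 libraries, the gap between the most extreme library and its nearest neighbour was set against the range of the group (Dixon's test, 95% level). Chance alone flags about 1 in 20 groups, and 9 of 105 group values of 21 named genes were flagged, 3 of them among 50 group values of the 10 triglyceride and droplet genes. For those 10 genes, Plin4 stood apart at 38.2 CPM in 3xTg-D replicate 3 (others 6.36 to 8.97), Lpin1 at 34.3 CPM in WT-D replicate 2 (others 30.7 to 31.0), and Pnpla2 at 15 CPM in 3xTg-S replicate 2 (others 13.0 to 13.3).

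The same 3xTg-D library stood apart for Sult1a1 at 29.7 CPM (others 7.22 to 9.26) and for Mettl7a1 at 41.5 CPM (others 25.9 to 26.9). Mettl7a1 was also apart in 3xTg-8M replicate 1 at 34.1 CPM, above others at 29.0 to 29.7. Sult1a1 was low in WT-D replicate 1 at 6.81 CPM, under others at 7.78 to 7.95. Scd1 was low in 3xTg-8M replicate 4 at 119.2 CPM, where the others were at 140.3 to 142.7, and that library held 721.5 CPM of the 10 choroid plexus markers, the most at 8 months. Hif3a was high in WT-8M replicate 4 at 5.63 CPM, where the others were at 3.3 to 3.64.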

How the results depend on the processing

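The 10 genes gave 1 call in 9 comparisons, Dgat2 at 8 months, and this call depended on the setting. It was lost, leaving 0 calls there, with DESeq2 size factors (log2 fold change 0.26, adjusted p = 0.051), with no filter on low counts (0.26, adjusted p = 0.0641) and with length and GC trends removed (0.19, adjusted p = 0.0607), and it held in the DESeq2 likelihood ratio test. With each replicate left out the count there ranged from 0 to 1, and the single call without WT-8M replicate 4 was Plin4. Elsewhere the count went from 0 to 1 with a threshold of 0.01 on the unadjusted p for the vehicle strain comparison (Lipe) and strain by age (Dgat2), and with no filter for 3xTg-S against 3xTg-D (Plin4, -1.02, adjusted p = 0.0134). The cause was not tested. With each replicate left out, Plin4 ranged from -0.16 to 1.06 between vehicle groups and from -1.05 to 0.18 for strain by treatment, and both signs reversed without 3xTg-D replicate 3. Over all genes, no filter moved the calls from 399 to 854 at 8 months, from 216 to 792 between vehicle groups and from 0 to 112 in 3xTg-S against 3xTg-D. Another 98 of 1490 values under an alternative changed sign, all of results within 1 SE of 0 that no setting called (at most 0.1 in size). Libraries with the same run of animal numbers had deviations with r from -0.21 to 0.18 in 21 pairs, 3 of them over 0.1. These were the 3 pairs of WT-D with WT-S, and no same-run pair between other groups passed 0.1. Of 63 pairs from different runs, 6 were over 0.1 and r reached 0.25. Whether the numbers pair any animals therefore cannot be told. The replicate block left 0 of the 10 genes called in every comparison of 10 months. With Plin4 and Lipe at few CPM and 3 or 4 animals a group, differences of the size of their SE could not be told from 0.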
